A study of Mus musculus with 3 samples.

Results

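Expression in JB6 P+ cells given CDDO together with TPA was compared with expression in the untreated control. All genes with at least 1 CPM in either of the 2 libraries were taken, 12534 of 24421 genes counted, where CPM gives reads of a gene relative to all reads of its library. JB6 P+ is a mouse epidermal line, labelled as skin epithelial cells, that tumour promoters can transform in culture. The series holds total RNA from 3 libraries, 1 per group; that of TPA alone shares the control and is given beside the others for reference. The CDDO+TPA cells received 10 ng/mL TPA (the phorbol ester 12-O-tetradecanoylphorbol-13-acetate) with 50 nM CDDO (a synthetic oleanane triterpenoid), and the TPA cells received the same TPA dose alone. Both were dosed on alternate days for 5 days in medium with 1% serum, whereas routine culture used 10% serum. The control's medium, vehicle and time are not given in the sources used here, so a difference from control cannot be told apart from one of serum, vehicle or time. The labels do not say whether a library is 1 culture or several pooled.

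Phorbol esters stand in for diacylglycerol and activate protein kinase C, which drives RAS and ERK signalling and the AP-1 transcription factors (FOS and JUN dimers), a long-studied route of tumour promotion in mouse skin and in JB6 cells. CDDO binds reactive cysteines, among them those of KEAP1, the adaptor that marks the transcription factor NRF2 for degradation. Freed NRF2 pairs with small MAF proteins on antioxidant response elements and raises genes for glutathione metabolism, quinone reduction and drug conjugation. With both agents and 1 comparison to untreated cells, the part of each agent in a difference cannot be told apart without the TPA library, and a library with CDDO alone was not analysed here.

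The libraries of control, TPA and CDDO+TPA held 8190078, 7813035 and 7872089 reads assigned to genes. A gene was called higher or lower when its log2 fold change, computed with a prior count of 2, reached 1 in either direction and its fold had a 95% counting interval without 1. By this size rule 1043 genes were higher in CDDO+TPA than in control, 8.32% of those measured, and 437 were lower, 3.49%. A further 11054 genes were not past the rule, and the median over all measured genes was -0.02. For scale, the TPA library differed from the same control in 1250 genes higher, 9.74% of 12831 measured, and 771 lower, 6.01%. CDDO+TPA differed from TPA in 1027 genes higher, 7.91% of 12980 measured, and 1018 lower, 7.84%. The higher genes had a median level of 3.99 CPM in control, 7.41 CPM in TPA and 14.6 CPM in CDDO+TPA. The lower genes had 7.36, 4.65 and 2.41 CPM. Most differences were of moderate size: 309 genes were higher and 109 lower at a log2 fold change of 2, and 71 and 18 at 3. Of the higher genes 313 had under 1 CPM in control and 60 had no control read, so they were measured only through the CDDO+TPA library, and 156 lower genes had under 1 CPM in CDDO+TPA. Genes of high abundance were among those past the rule as well, with 80 of the higher genes at 100 CPM or more in CDDO+TPA and 43 of the lower genes at that level in control. At the edge of the measured set, 9 control reads (1.12 CPM) were inside and 8 (0.998 CPM) outside.

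Values given for all 3 libraries stand in the order control, TPA, CDDO+TPA, and every fold sets the CPM of CDDO+TPA against that of control, with its 95% counting interval in parentheses, unless TPA is named. There was 1 library a group, so nothing here was tested against the spread between cultures, and the intervals cover counting error only. Where a library had 0 reads, the fold is written as at least its value against 3 reads, the floor. That floor lies at 0.374, 0.377 and 0.380 CPM in the respective libraries. The lower limit of the counting interval can lie below such a fold. In RNA from whole cultures, fewer cells that express a gene and less RNA per cell cannot be told apart. When the spread between cultures was assumed to have a coefficient of variation of 0.4, 407 genes were higher and 140 lower.

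**Figure D1:**
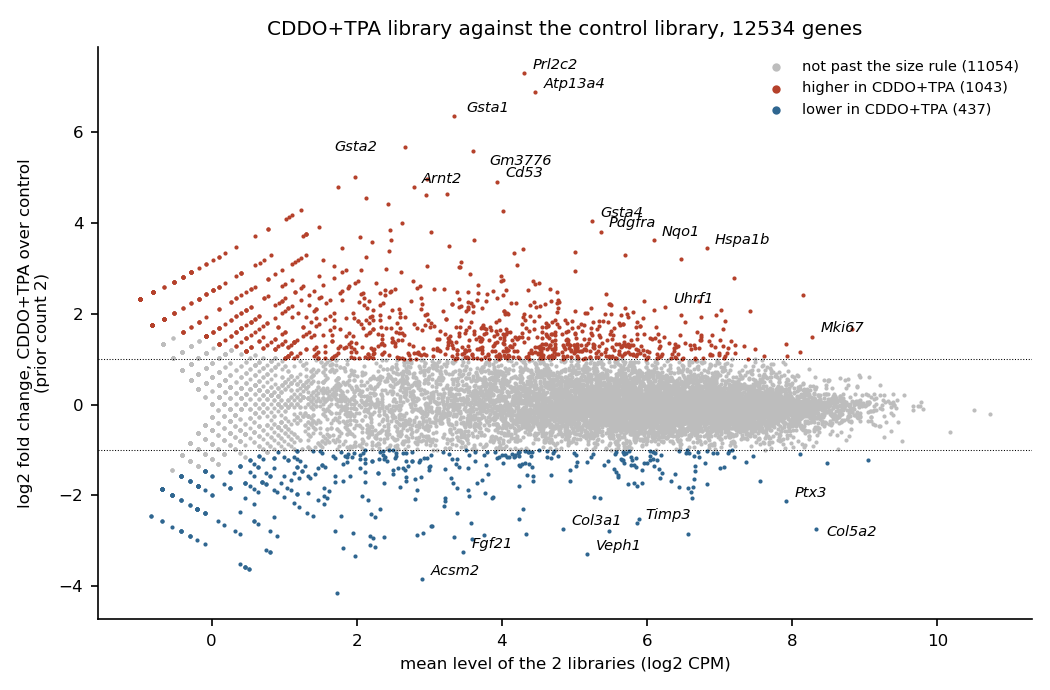
Each point is 1 of the 12534 measured genes, with its mean level in the control and CDDO+TPA libraries (log2 CPM) on the horizontal axis and its log2 fold change of CDDO+TPA over control on the vertical axis. The 1043 higher genes are red, the 437 lower genes blue and the others grey, and the dotted lines mark a log2 fold change of 1 in either direction; the genes farthest up include Prl2c2, Atp13a4 and the Gsta genes.

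The labelled cell type was checked first. Of 24 keratinocyte markers 8 were measured, and the defining ones were at or near 0: Krt5 and Epcam had 0 reads in all 3 libraries, Krt14 had 1, 0 and 1 reads and the epithelial cadherin Cdh1 had 4, 1 and 4 reads. Pkp3, a desmosomal plakophilin, was nevertheless 4.89-fold higher (3.21 to 7.70) with 3.37, 16.6 and 16.5 CPM, and Col17a1, the hemidesmosomal collagen XVII, had 5, 19 and 15 reads. Those were the 2 keratinocyte markers past the rule, beside a list median of 0.45. Col17a1 had under 1 CPM in control and was measured only through CDDO+TPA, and of the other 7 markers 1 was higher. The most abundant keratinocyte marker, the laminin chain gene Lamb3, had 26.3, 23.9 and 43.5 CPM. Fibroblast and mesenchymal markers were measured for 19 of 22 members, of which 2 were higher and 5 lower (median -0.13). These libraries thus held most of the listed mesenchymal markers, with the keratin genes Krt5 and Krt14 at or near 0. Of 4 measured smooth muscle markers, Des, the muscle intermediate filament desmin, was higher at 20.8, 23.5 and 47.5 CPM (list median 0.15).

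Leukocyte markers were measured for 5 of 14 members, and 3 were higher and 1 lower (median 1.68). However, 2 of the 5 had under 1 CPM in control and were measured only through CDDO+TPA. Of the other 3, 1 was higher and 1 was lower. The lower one was Cd74, the class II invariant chain, at 23.6, 6.78 and 5.45 CPM. Cd53, a tetraspanin of white blood cells, had 6, 30 and 236 reads, 39.9-fold higher (18.1 to 109.9), and Lcp1, the actin-bundling L-plastin, had 7, 9 and 121 reads, 17.6-fold higher (8.26 to 44.6). Cd68, a lysosomal glycoprotein of macrophages, stood at 22.1, 52.2 and 71.2 CPM, whereas Ptprc, which encodes the leukocyte antigen CD45, had 0 reads in all 3 libraries. Among endothelial markers 2 of 9 were measured; Vwf, the von Willebrand factor gene, was 3.96-fold higher (3.55 to 4.43) at 49.9, 289.6 and 198 CPM, and the endothelial cadherin Cdh5 had 3, 1 and 0 reads. Of the melanocyte and Schwann cell list, 3 members were measured and none was past the rule (median 0.25), and the most abundant, the transcription factor Mitf, had 25.3, 15.9 and 35.2 CPM.

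Many genes typical of kidney epithelium were present at low levels in the control and lower in CDDO+TPA. A list of 44 such genes was drawn up after the values were seen, so its counts support nothing by themselves: of 34 measured, 29 were lower, 1 was higher and 4 lay within the rule (median -2.46). Their summed level was 189, 111 and 41.7 CPM. Cdh6, kidney cadherin, is not on this list and was higher in CDDO+TPA, at 19.1, 28.4 and 84.8 CPM. Kap, the kidney androgen-regulated protein gene, had 142, 95 and 25 reads, Slc34a1, the sodium-phosphate cotransporter of the proximal tubule, 102, 44 and 12 reads, and Acsm2, a medium-chain acyl-CoA synthetase, 114, 62 and 6 reads. Lrp2, the endocytic receptor megalin, had 173, 34 and 20 reads, while its partner receptor Cubn was nearly equal at 141, 137 and 135 reads. The TPA library lay between control and CDDO+TPA for the sum and for most of these genes, and their part in the lower counts of other genes was not tested. Whether these reads came from the JB6 cells themselves was not tested either, which bears on each value given for a gene of this list, such as Acsm2, Slc34a1, Lrp2 and Ggt1. Without the measured members of this list 408 genes were lower and 1042 higher.

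**Figure D2:**
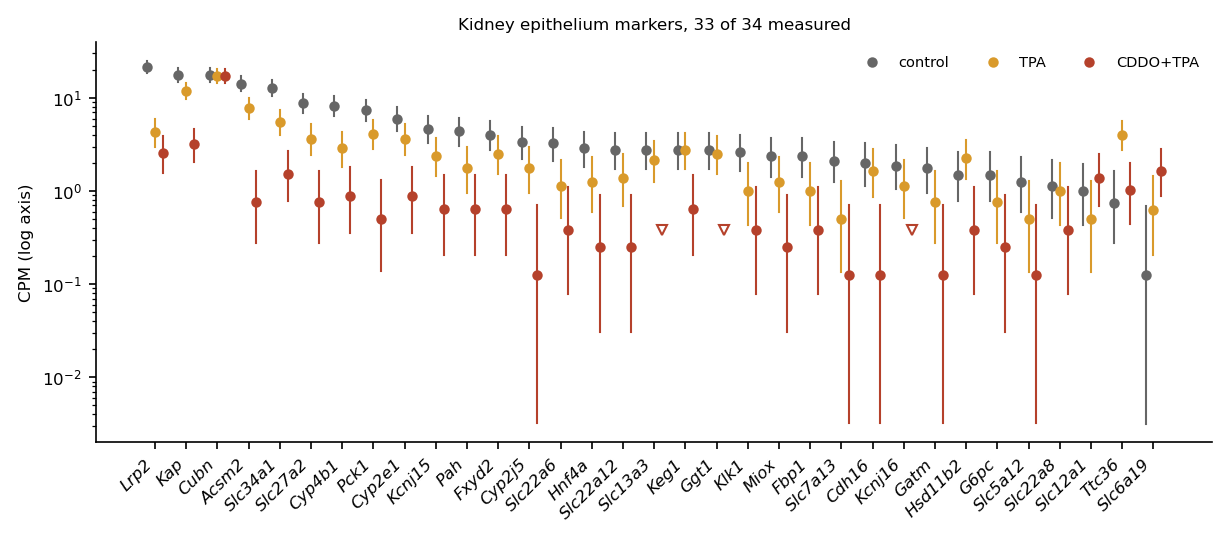
CPM (log axis) of 33 of the 34 measured kidney epithelium markers in control (grey), TPA (orange) and CDDO+TPA (red), ordered by their control level; bars are exact 95% Poisson counting intervals and open triangles mark the floor of 3 reads for a gene with 0 reads. CDDO+TPA lies below control for 30 of the 33, and Slc6a19, Slc12a1 and Ttc36 lie above it.

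Among genes with at least 10 CPM in the higher library, the 15 with the highest fold over control included several that were near absent from the control. Atp13a4 (mm10 chr16:29396038-29544864, minus strand), a transporter of the P5B class, was counted at 1, 540 and 347 reads (352-fold higher, 62.8 to 13955). Slc35f1, an orphan solute carrier, had 2, 73 and 122 reads (61.9-fold higher, 16.8 to 517), and Arnt2, a bHLH-PAS partner factor, had 2, 5 and 107 reads (54.3-fold higher, 14.7 to 454). These differ in where TPA stood: Arnt2 was 21.6-fold higher than in TPA (8.97 to 67.9), whereas Atp13a4 was 1.54-fold lower than in TPA (1.34 to 1.77). Cd300lb, an activating myeloid receptor, had 3, 75 and 119 reads, the granule protease gene Mcpt8 2, 28 and 83 reads, and Ptpn22, a phosphatase of lymphocyte signalling, 4, 29 and 83 reads. Each of those 3 is best known from blood cells, and each was past the rule in TPA as well. Cobl, an actin nucleator, was 22.5-fold higher (12.4 to 45.7) at 1.37, 3.14 and 30.9 CPM, and Sgk2, a serum- and glucocorticoid-regulated kinase, was 23.6-fold higher (8.92 to 88.5). The other members of the group, Prl2c2, Gsta1, Gsta2, Gm3776, Gsta4, Cd53 and Notch4, are described with their families. Mcpt8 belongs to a family of similar genes, so its reads are uncertain.

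The 15 genes with the lowest fold included Acsm2, Lrp2 and Slc34a1 of the kidney list above, the matrix and protease genes Adamts5, Col3a1 and Col5a2 described with the matrix, and the following single genes. Dpt, a dermal matrix protein, was 8.40-fold lower (5.07 to 14.8) at 18.1, 4.39 and 2.15 CPM, and Edn1, the vasoconstrictor endothelin-1, was 8.11-fold lower (4.54 to 15.7) at 13.4, 1.13 and 1.65 CPM. Exph5, an effector of the exocytic GTPase RAB27, had 166, 6.65 and 22.8 CPM and was 7.27-fold lower (6.21 to 8.54). In Exph5 and Edn1 the TPA library was the lowest of the 3. L1cam, a neural adhesion molecule, was not past the rule in TPA, with 35.4, 29.4 and 4.69 CPM, and was 7.56-fold lower (5.35 to 11) in CDDO+TPA. Ctsw, a cathepsin of cytotoxic lymphocytes, had 115, 65 and 16 reads, and Prr32 had 192, 13 and 24 reads. Veph1 (mm10 chr3:66053558-66296837, minus strand) had 529, 0 and 51 reads; it spans Ptx3 on the opposite strand, and counting took no account of strand, so reads of this pair cannot be told apart where exons overlap. Fgf21, a hormone of the fasting and stress response, was 10.6-fold lower (6.26 to 19.4) with 20.2, 0.753 and 1.90 CPM.

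Gene lists were described by their counts and medians, to be read against the shares of all measured genes, 8.32% higher and 3.49% lower, and the median of -0.02. A member with under 1 CPM in control was measured only through CDDO+TPA, so such members can raise a list's share of higher genes. The largest shares of higher members, among lists with at least 10 measured, were in mitotic genes and DNA replication, all of whose measured members had at least 1 CPM in control. Cholesterol synthesis and complement and acute phase genes had 0 members higher and the largest shares of lower members. The medians of TPA over control stand beside them in the plot of lists; both use the same control library, so the pairs are not independent.

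**Figure D3:**
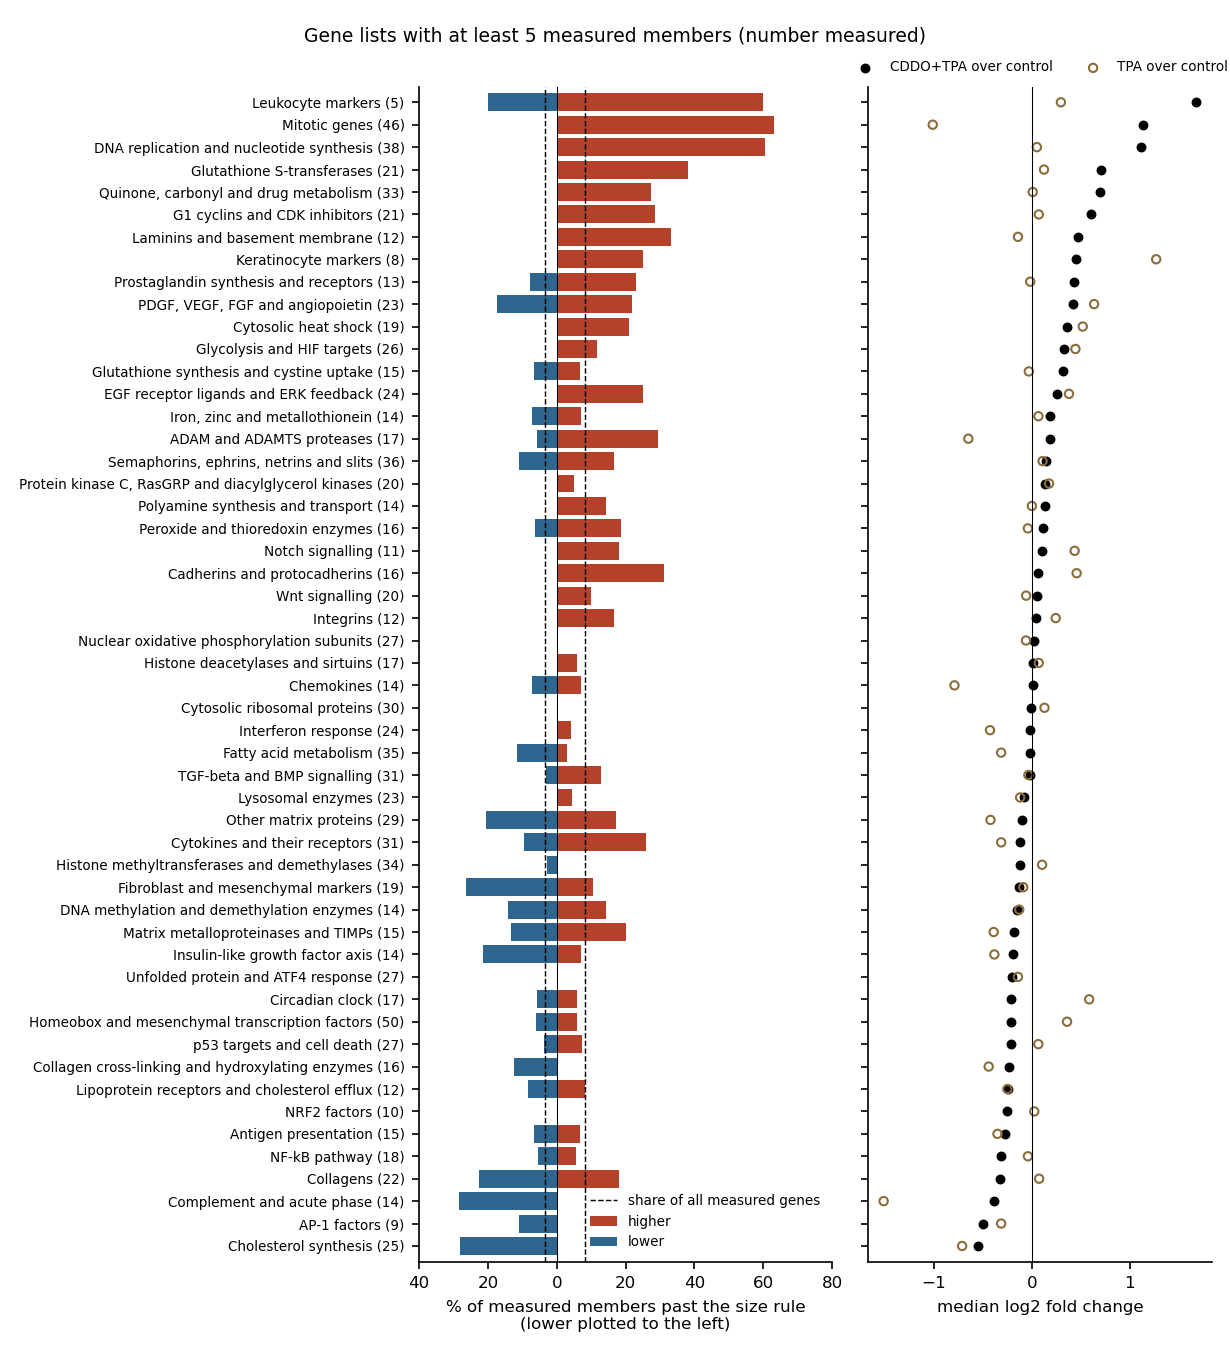
Left, the share (%) of measured members of each gene list that were higher (red, to the right) or lower (blue, to the left) in CDDO+TPA than in control, with the shares of all measured genes as dashed lines. Right, the median log2 fold change of each list for CDDO+TPA over control (filled) and TPA over control (open); mitotic genes stand at 1.14 and -1.01.

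The glutathione S-transferases and the quinone and carbonyl enzymes had members that were higher in CDDO+TPA and none that were lower. Of the glutathione S-transferases, which attach glutathione to electrophiles, 8 of 21 measured members (38.1%) were higher and 0 were lower, with a median log2 fold change of 0.70; TPA over control had 1 of 17 higher and 0 lower, with a median of 0.12. Of the 21, 5 (Gsta1, Gsta2, Gm3776, Gsta3 and Mgst2) had under 1 CPM in control and were measured only through CDDO+TPA, the library where they are high; of the other 16, 3 were higher. None of those 5 reached 1 CPM in TPA either, so the count for TPA leaves them out. The alpha-class copies Gsta1, Gsta2 and Gm3776 are so alike that reads may be exchanged between them, and their sum was 2, 3 and 449 reads, 228-fold higher (62.7 to 1888). By themselves Gsta1 had 0, 3 and 160 reads, Gsta2 0, 0 and 100 reads and Gm3776 2, 0 and 189 reads. In control and TPA each of these 3 genes thus had 3 reads or fewer. Gsta4, which clears the lipid peroxidation product hydroxynonenal, was 17.4-fold higher (12.2 to 25.5) at 4.12, 6.15 and 71.5 CPM. Gsta3 had 2, 0 and 15 reads and the microsomal Mgst2 0, 5 and 15 reads. The mu-class Gstm3 and the omega-class Gsto2 made up the 8, at 2.37, 3.64 and 7.48 CPM and 16.7, 26.4 and 43.2 CPM.

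The other 13 measured glutathione S-transferases ranged from a log2 fold change of -0.61 (Gstt2) to 0.75 (Mgst3). The pi-class Gstp1 had 54.9, 78.6 and 89.1 CPM and its near copy Gstp2 36.7, 49.8 and 59.9 CPM, the mu-class Gstm1 63.9, 69.0 and 97.2 CPM, and the microsomal Mgst1 and Mgst3 44.6, 37.5 and 74.9 CPM and 6.36, 8.79 and 10.9 CPM. Gsto1, the most abundant of the list, had 165, 151 and 157 CPM. The list also held Gstm2, Gstm5 and Gstm6, at log2 fold changes of -0.13, 0.21 and -0.34, and Gstt3, Gstz1 and Gstcd at -0.06, 0.34 and 0.31. The list members under 1 CPM in both libraries were Gstm4, Gstm7, Gstt1 and Gstk1, with Gstk1 at 0 reads in all 3.

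In quinone, carbonyl and drug metabolism 9 of 33 measured members (27.3%) were higher and 0 lower, with a median log2 fold change of 0.69. Of the 33, 4 had under 1 CPM in control, and 8 of the other 29 were higher. In TPA over control there were 3 of 31 higher and 3 lower, with a median of 0.01. Nqo1 (mm10 chr8:107388225-107403205, minus strand), the quinone reductase widely used as a readout of NRF2, had 9.98, 17.5 and 126 CPM and was 12.7-fold higher (10.1 to 16.1) against control and 7.24-fold higher than in TPA (6.06 to 8.71). Aldh1a1, a retinal dehydrogenase, had 9, 1 and 67 reads, and Aldh3a1, an aldehyde dehydrogenase of epithelia, 0, 1 and 18 reads. Ptgr1, which reduces prostaglandins and unsaturated carbonyls, was 5.72-fold higher (3.94 to 8.56) at 4.12, 4.90 and 23.6 CPM. The export pump gene Abcc1 was the most abundant of the list and not past the rule, at 159.7, 161 and 258 CPM. Among the genes just named, CDDO+TPA was the highest of the 3 libraries in every case. All but Abcc1 were named for their large folds over control, so their place above control follows from that choice. The log2 fold change was negative in 6 of the 33 measured members.

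For enzymes of glutathione metabolism and carriers of cystine, 1 was higher and 1 lower among 15 measured members, and 13 did not reach the rule (median log2 fold change 0.32). The member higher was Gclm, the regulatory subunit of glutamate-cysteine ligase, 2.34-fold higher (2.09 to 2.61) at 58.3, 80.5 and 136 CPM, and the member lower was Ggt1, a gamma-glutamyltransferase of the kidney list, with 22, 20 and 0 reads. The most abundant member, the cystine transporter heavy chain Slc3a2, had 303, 310.0 and 242 CPM. For peroxide and thioredoxin enzymes, 3 of 16 measured members were higher and 1 lower (median log2 fold change 0.12). Srxn1, which restores peroxiredoxins, was 2.50-fold higher (2.26 to 2.77) at 67.0, 82.9 and 168 CPM, Osgin1, an oxidative stress-induced growth inhibitor, 4.92-fold higher (3.71 to 6.63) at 7.36, 20.7 and 36.2 CPM, and catalase, Cat, 2.03-fold higher (1.85 to 2.23) at 88.5, 91.6 and 179.7 CPM. Txnrd1, thioredoxin reductase, stood at 345, 274 and 499 CPM without passing the rule, and the secreted peroxidase gene Gpx3 was 2.26-fold lower (1.89 to 2.70) at 51.8, 52.4 and 22.9 CPM. Counts of both lists lie near the background except for the peroxide enzymes' 18.8% higher.

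Regulators of the pathway were counted as well. Of 10 NRF2 factors none was past the rule in either direction (median -0.26). The NRF2 gene Nfe2l2 stood at 166, 111 and 134 CPM, and the gene of its cysteine sensor, Keap1, at 57.5, 80.8 and 77.9 CPM. Bach1, the repressor of the same elements, had 135, 151 and 125 CPM, and the ubiquitin ligase scaffold genes Cul3 and Btrc had 191, 180.3 and 165 CPM and 47.9, 55.6 and 54.7 CPM. The small MAF partners Mafk, Maff and Mafg stood at 211, 206 and 155 CPM, 196, 204 and 153 CPM and 109.9, 128 and 88.6 CPM. Nfe2l1, the related factor NRF1, was the most abundant at 549.7, 402 and 430.2 CPM, and Sqstm1, the KEAP1-binding autophagy receptor p62, had 401, 399 and 394 CPM. NRF2 is controlled mainly through protein stability, which RNA counts do not measure. In the iron, zinc and metallothionein list 1 of 14 measured members was higher and 1 lower (median log2 fold change 0.18), both near the background. Tfrc, the transferrin receptor, was 2.32-fold higher (2.14 to 2.52) at 108, 196 and 252 CPM, the zinc importer gene Slc39a10 was 2.06-fold lower (1.66 to 2.56) at 33.1, 20.7 and 16.1 CPM, and the most abundant member, Steap2, had 294, 132 and 428 CPM.

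Letters of the antioxidant response element core, TGACNNNGC, were searched on both strands in the 250 bases before the start of each gene, in RefSeq promoters of GRCm38.p6 that matched 9485 measured genes. They occurred before 12.4% of all measured genes, 14.9% of the higher and 13.9% of the lower ones. Of the genes past the rule with a matched promoter, they occurred in 2 of 2 of the glutathione and cystine list, Gclm (higher) and Ggt1 (lower). They occurred in 1 of 7 glutathione S-transferases, 0 of 7 quinone, carbonyl and drug genes and 0 of 4 peroxide and thioredoxin genes. Gclm is shown because it is the ligase gene that was higher, with the core on the reverse strand in capitals. A match is a description of letters and not of binding. Elements farther from the gene start, or spelled with other letters, were not counted here. A gene without a match may therefore still hold one.
Gclm, chr3:122245408-122245446, plus strand: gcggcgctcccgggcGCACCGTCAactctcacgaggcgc

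**Figure D4:**
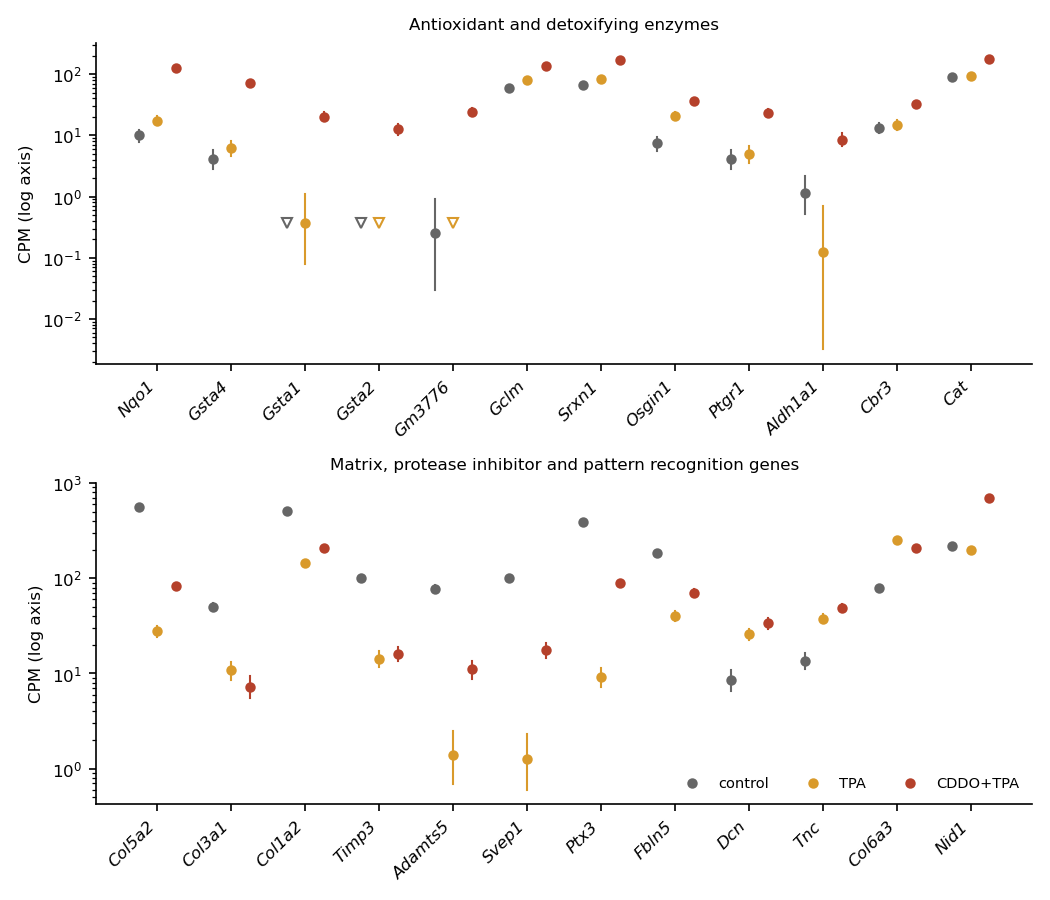
CPM (log axis) in control (grey), TPA (orange) and CDDO+TPA (red), with exact 95% Poisson counting intervals; open triangles mark the floor of 3 reads where a library had 0. In the upper panel of antioxidant and detoxifying enzymes CDDO+TPA is the highest of the 3 libraries for each gene, and in the lower panel of matrix, protease inhibitor and pattern recognition genes the 8 from Col5a2 to Fbln5 lie below control in both treated libraries and the last 4, from Dcn to Nid1, above control in CDDO+TPA. Genes of both panels are a selection, some chosen after their values were seen, so these directions follow from the choice. Gpx3, Gsto1 and Slc3a2, which are not plotted, were not highest in CDDO+TPA.

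Proliferation genes formed the largest group that was higher than in control. Of the mitotic genes 29 of 46 measured members (63.0%) were higher and 0 were lower, with a median log2 fold change of 1.14, and 45 of the 46 had a positive log2 fold change. The same list in TPA over control had 0 of 46 higher and 25 lower, with a median of -1.01, so the medians of the 2 treated libraries lay on opposite sides of the control. Mki67, the proliferation antigen Ki-67 and most abundant member, had 162, 85.2 and 459 CPM and was 2.82-fold higher (2.65 to 3.01) against control. Cenpf, a kinetochore protein, had 36.1, 16.8 and 142 CPM (3.93-fold higher, 3.45 to 4.49), Bub1, the checkpoint kinase, 27.6, 12.6 and 91.6 CPM (3.32-fold higher, 2.85 to 3.88), and the spindle kinesin gene Kif15 17.6, 8.03 and 57.0 CPM (3.24-fold higher, 2.68 to 3.94). In those 4 genes TPA was the lowest and CDDO+TPA the highest library. Ccnb2, cyclin B2, was 3.72-fold higher (2.73 to 5.14) at 6.61, 6.15 and 24.6 CPM, and was not past the rule in TPA.

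DNA replication and nucleotide synthesis was the second such list: 23 of 38 measured members (60.5%) were higher and 0 were lower, with a median log2 fold change of 1.12, and 37 of 38 were positive. In TPA over control it had 3 of 38 higher and 1 lower, with a median of 0.05. Uhrf1, which carries DNA methylation through replication, had 28.0, 32.4 and 124 CPM and was 4.43-fold higher (3.83 to 5.15), and Pole, the leading-strand polymerase, had 40.6, 43.2 and 143 CPM (3.53-fold higher, 3.12 to 4.01). In TPA neither was past the rule. Pold1, the lagging-strand polymerase, and Gins2, a subunit of the replicative helicase, were higher in both treated libraries, at 16.6, 39.2 and 59.6 CPM and 6.49, 17.8 and 23.7 CPM; Gins2 overlaps Gse1 on the other strand. Mcm2, another helicase subunit and the most abundant member, was not past the rule at 177, 138 and 179 CPM. Among G1 cyclins and CDK inhibitors 6 of 21 measured members were higher and 0 lower (median log2 fold change 0.60). The S-phase cyclins Ccne1 and Ccne2 had 4.87, 7.53 and 25.7 CPM and 3.37, 15.7 and 22.2 CPM, and E2f2 and E2f8, transcription factors of the same phase, 3.00, 5.65 and 12.7 CPM and 18.7, 16.4 and 62.2 CPM. Ccne1 was 5.28-fold higher (3.74 to 7.65) and E2f8 3.32-fold higher (2.76 to 4.02), while Ccne2 overlaps Ints8 on the opposite strand. Ccnd2, cyclin D2, the most abundant of the list, was not past the rule at 359.8, 263 and 299 CPM. The medium and serum of the control are unknown, as stated above, and its share in these differences cannot be told apart.

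**Figure D5:**
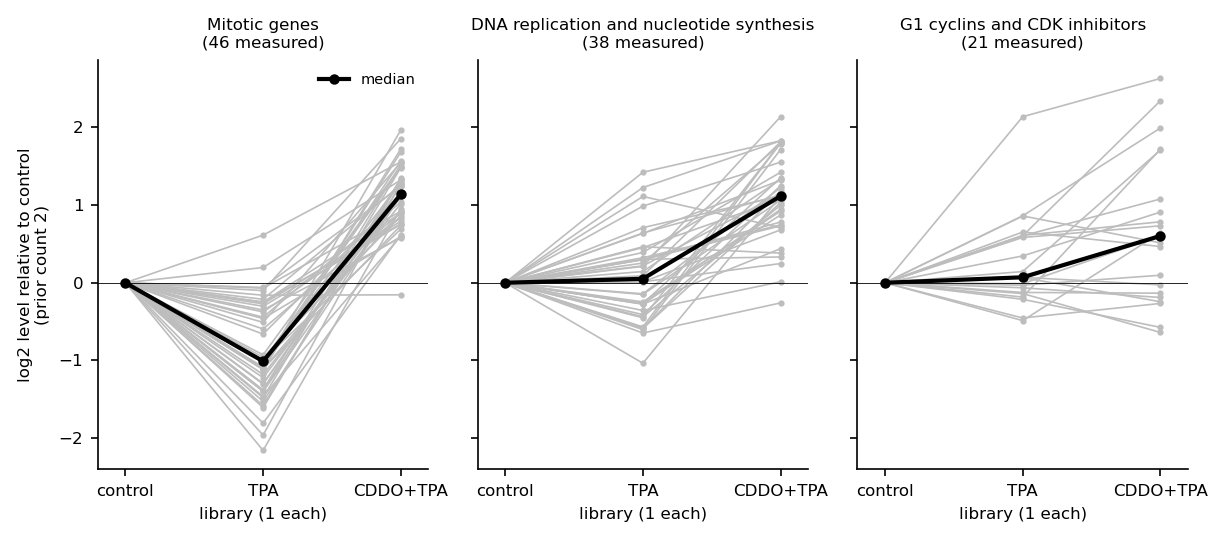
Log2 level relative to the control library (vertical axis, prior count 2) of each measured gene by library, 1 grey line per gene with the median in black. The median of the 46 mitotic genes goes from 0 in control to -1.01 in TPA and 1.14 in CDDO+TPA, and that of the 38 replication genes to 0.05 and 1.12.

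The E2F motif TTTGGCGC, searched on both strands in the same promoters, was added after the values were seen. It lay before 0.907% of all measured genes, 1.16% of the higher and 0.968% of the lower ones. Of the mitotic genes 3 of 40 promoters held it, and of the replication genes 3 of 31. A replication and a mitotic gene that were higher are shown as examples, with the motif in capitals on the reverse strand. Mcm5, a helicase subunit, was 2.39-fold higher (2.12 to 2.69) at 48.8, 36.7 and 116 CPM.
Mcm5, chr8:75109345-75109382, plus strand: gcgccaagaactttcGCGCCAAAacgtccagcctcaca
Kif15, chr9:122951039-122951076, plus strand: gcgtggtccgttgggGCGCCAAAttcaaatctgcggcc

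Tumour promotion genes were examined next. Proliferins are prolactin-like hormones named for their appearance in growing mouse cells, and they held the highest log2 fold change among genes with 10 CPM or more. Prl2c2 had 0, 32 and 312 reads, at least 106-fold higher, Prl2c5 had 0, 7 and 62 reads, Prl2c1 0, 3 and 11 reads, Prl2c3 0, 1 and 5 reads and Prl2c4 0 in all. The copies are near identical, and summed they had 0, 43 and 390 reads. Their sum was at least 132-fold higher in CDDO+TPA than in control, set against the floor, with a lower counting limit of 107. It was 9.15-fold higher than in TPA (6.67 to 12.9). The proliferins were thus undetected in the control, at a low level with TPA alone and at a higher one with CDDO added. The 3 measured members were all higher, with a median log2 fold change of 5.01, or 4.39 with the control set to its floor. They passed the level filter through the CDDO+TPA library alone.

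No AP-1 factor was past the rule as higher: 0 were higher and 1 lower among 9 measured members, and 8 did not reach it (median log2 fold change -0.50). The log2 fold change was positive in 2 members and negative in 7. Jun, the most abundant, had 306, 235 and 184 CPM, Junb 179, 156 and 126 CPM and Jund 229, 184 and 153 CPM. Fos had 24.0, 15.8 and 21.5 CPM, Fosb 3.49, 4.14 and 7.10 CPM, Fosl1 42.3, 53 and 51.1 CPM and Fosl2 213, 177 and 213 CPM. None of these 7 was past the rule. Fosb lay just short of it, 2.03-fold higher (1.27 to 3.32) with a log2 fold change of 0.97 computed with the prior count. Fosl1 overlaps Ccdc85b on the opposite strand. The member past the rule was Atf3, a stress-induced repressor and partner of JUN, 2.44-fold lower (2.2 to 2.71) at 158, 101 and 64.7 CPM. Maf had 64.8, 47.5 and 42.8 CPM, and Batf and Batf3 were under 1 CPM in both libraries.

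Promoters were searched for the AP-1 letters TGANTCA, which both TPA-responsive elements and part of many antioxidant elements contain, on both strands of the same 250 bases. They lay before 8.40% of the higher genes and 7.42% of the lower ones, against 4.36% of all measured genes. Of 124 genes named by rule and past it that matched a promoter, 12 held the letters. Among these, Cd68 and Ikbkg, which were higher, and Igf1 and Ptgds, which were lower, are not shown. The following show the letters, in capitals, in 4 oxidant-defence and transport genes and 3 inflammatory or protease genes that were higher, and in 1 gene that was lower. Srxn1 holds a pair of them.
Srxn1, chr2:152105407-152105500, plus strand: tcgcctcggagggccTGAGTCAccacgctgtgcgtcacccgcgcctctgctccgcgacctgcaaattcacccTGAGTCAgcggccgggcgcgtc
Osgin1, chr8:119437035-119437071, plus strand: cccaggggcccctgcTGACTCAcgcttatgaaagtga
Mgst2, chr3:51661112-51661148, plus strand: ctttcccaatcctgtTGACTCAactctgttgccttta
Atp13a4, chr16:29545021-29545057, minus strand: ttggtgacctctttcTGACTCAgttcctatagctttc
Mmp3, chr9:7445761-7445797, plus strand: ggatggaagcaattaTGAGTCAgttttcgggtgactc
Mmp10, chr9:7502264-7502300, plus strand: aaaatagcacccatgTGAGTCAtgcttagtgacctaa
Il1a, chr2:129309973-129309999, minus strand: aaaggcagagaagccTGACTCAgactt
Acox2, chr14:8259020-8259045, minus strand: tttaagcctggaagcTGAGTCAtgcc

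The direct receptors of phorbol esters and their partners come next. In the protein kinase C, RasGRP and diacylglycerol kinase list 1 of 20 measured members was higher and 0 lower (median log2 fold change 0.13); Rasgrp3, a phorbol-binding RAS exchange factor, had 25, 37 and 66 reads (2.68-fold higher, 1.67 to 4.43), and Prkci, an atypical kinase that lacks phorbol binding and the most abundant member, had 272, 195 and 205 CPM. Among EGF receptor ligands and ERK feedback genes 6 of 24 measured members (25%) were higher and 0 were lower, with a median log2 fold change of 0.26, and TPA over control had 5 of 25 higher and 2 lower, with a median of 0.38. Dusp5, a nuclear ERK phosphatase, was 6.88-fold higher (5.0 to 9.67) at 5.49, 19.7 and 37.8 CPM, and Btc, the ligand betacellulin, was 3.86-fold higher (2.58 to 5.94) at 3.87, 9.79 and 15 CPM. Erbb3 and the feedback gene Spred3 were also higher, with 6.74, 7.53 and 15.8 CPM and 47.3, 91.5 and 98.8 CPM, whereas the most abundant member Spred1 had 202, 219.8 and 193 CPM. Dusp5 and Btc were past the rule with TPA alone as well. Of the polyamine genes, 2 of 14 measured members were higher and 0 lower (median log2 fold change 0.13). Of the 14, 1 (Atp13a4) had under 1 CPM in control, and 1 of the other 13 was higher. Past the rule were Atp13a4, given above, and Atp13a2, a lysosomal polyamine exporter, 2.34-fold higher (1.99 to 2.77) at 25.8, 36.0 and 60.6 CPM; the related Atp13a3, the most abundant, had 419, 382 and 352 CPM.

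Extracellular matrix genes went both ways. In the collagens 4 of 22 measured members (18.2%) were higher and 5 were lower, with a median log2 fold change of -0.33. Control had under 1 CPM for 4 of the 22, and 2 of the other 18 were higher. TPA over control had 6 of 23 higher and 7 lower, with a median of 0.07. Col5a2 (mm10 chr1:45374331-45503282, minus strand), of fibrillar collagen V, was 6.76-fold lower (6.22 to 7.35) at 557, 27.7 and 82.5 CPM, and Col3a1, of collagen III, was 6.95-fold lower (5.25 to 9.34) at 50.2, 10.8 and 7.22 CPM. Col5a2 was lowest in TPA, with CDDO+TPA between it and the control, whereas Col3a1 was lowest in CDDO+TPA. Col11a2, a minor fibrillar chain, was not past the rule in TPA and was lower in CDDO+TPA, at 109, 139 and 38.1 CPM. Col23a1, a transmembrane collagen, had 1, 19 and 8 reads, and Col4a2 of basement membranes, the most abundant, had 527, 281 and 431 CPM. For other matrix proteins 5 of 29 measured members (17.2%) were higher and 6 were lower, with a median log2 fold change of -0.10. Svep1, a large adhesion protein, was 5.78-fold lower (4.82 to 6.98) at 101, 1.26 and 17.5 CPM, and Postn, periostin, had 9, 0 and 0 reads. The small proteoglycan gene Dcn was 3.96-fold higher (3.02 to 5.24) at 8.49, 25.7 and 33.6 CPM and Nov, a CCN family protein, 6.01-fold higher (3.23 to 12.2) at 1.5, 1.88 and 9.0 CPM, whereas Fn1, fibronectin, was the most abundant and not past the rule at 1519, 1087 and 1391 CPM.

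Basement membrane genes had higher members and no lower one: 4 of 12 measured members were higher and 0 lower (median log2 fold change 0.47). Control had under 1 CPM for 2 of the 12, and 2 of the other 10 were higher. Nid1, which links laminin to collagen IV, was 3.18-fold higher (3.01 to 3.35) at 217, 197 and 689.8 CPM and 3.51-fold higher than in TPA (3.31 to 3.71), and its relative Nid2 had 2.75, 3.77 and 5.96 CPM. Lama3 and Lamc3, laminin chains, had 0, 11 and 14 reads and 8, 7 and 30 reads, and the perlecan gene Hspg2, the most abundant, stood at 694, 488 and 496 CPM. Of the enzymes that cross-link and hydroxylate collagen, 0 of 16 measured members were higher and 2 lower (median log2 fold change -0.24). The lower members were Lox, lysyl oxidase, with 23, 8 and 0 reads, and P4ha3, a prolyl hydroxylase, with 6.24, 1.38 and 2.41 CPM, and the most abundant was Loxl4 at 491, 205 and 322 CPM.

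Matrix metalloproteinases and their inhibitors numbered 15 measured, of which 3 were higher and 2 lower (median -0.19). Control had under 1 CPM for 2 of the 15, and 1 of the other 13 was higher. The stromelysins Mmp3 and Mmp10 had 15, 94 and 64 reads and 4, 72 and 19 reads, and the membrane-bound Mmp15 had 1, 61 and 11 reads. Each of the 3 had its most reads in TPA and its fewest in control. Timp3, an inhibitor held in the matrix, was 6.22-fold lower (5.15 to 7.56) at 100.1, 14.2 and 16.1 CPM and overlaps Syn3 on the opposite strand, whereas Timp2, the most abundant, had 514, 433 and 600.0 CPM. In the ADAM and ADAMTS proteases 5 of 17 measured members (29.4%) were higher and 1 was lower, with a median log2 fold change of 0.18. Control had under 1 CPM for 3 of the 17, and 3 of the other 14 were higher. Adamts5, which cleaves the proteoglycan aggrecan, had 78.0, 1.38 and 11 CPM (7.08-fold lower, 5.65 to 8.96), and Adamts7 was 3.18-fold higher (2.37 to 4.33) at 7.49, 14.7 and 23.8 CPM. Adam19 had 7, 5 and 35 reads and Adam33 2, 124 and 12 reads; the sheddase gene Adam9, the most abundant, had 438, 247 and 359 CPM.

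Integrins and cadherins had members higher and none lower. Of the integrins 2 of 12 measured members were higher and 0 lower (median log2 fold change 0.04). Itgb7, a beta chain of lymphocyte homing receptors, was 6.96-fold higher (6.16 to 7.89) at 36.8, 167 and 256 CPM, and Itgb2, the beta chain of leukocyte integrins, was 3.33-fold higher (2.44 to 4.62) at 6.61, 8.16 and 22.0 CPM. Itgb1, the common beta chain, was the most abundant at 521, 389 and 461 CPM. Cadherins and protocadherins had 5 of 16 measured members higher (31.2%) and 0 lower (median 0.06). Of the 16, 1 had under 1 CPM in control, and 4 of the other 15 were higher. Cdh6, kidney cadherin, was 4.44-fold higher (3.72 to 5.33) at 19.1, 28.4 and 84.8 CPM, and Celsr1, which orients cells within a sheet, had 2.50, 2.51 and 9.25 CPM (3.71-fold higher, 2.23 to 6.42). Cdh23 and Pcdh9 followed at 8, 43 and 30 reads and 17, 31 and 46 reads, and the giant cadherin gene Fat1, the most abundant, had 461, 346 and 353 CPM. In the guidance genes 6 of 36 measured members (16.7%) were higher and 4 were lower, with a median log2 fold change of 0.15. Sema5a, Sema7a, Sema6b and Sema4d, semaphorin ligands, were higher, with 22.2, 89.5 and 84.6 CPM for Sema5a (3.81-fold higher, 3.22 to 4.52) and 11, 52 and 57 reads for Sema7a. Sema6b and Sema4d had 29, 49 and 98 reads and 10, 22 and 32 reads. Slit2, a secreted repellent and the most abundant member, was 2.32-fold lower (2.21 to 2.43) at 738, 161 and 318 CPM.

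Complement and acute phase genes were the list with the largest share of lower members: 0 of 14 measured members (0%) were higher and 4 were lower, with a median log2 fold change of -0.39. In TPA over control there were 1 of 14 higher and 10 lower, with a median of -1.51. Ptx3, whose product binds microbial surfaces, had 394, 9.16 and 89.6 CPM (4.40-fold lower, 4.05 to 4.78), with TPA lowest; it lies within Veph1, on the other strand. Lbp, which binds lipopolysaccharide, was 6.54-fold lower (4.28 to 10.4) at 20.7, 1.26 and 3.17 CPM, C4b, a complement component, 3.28-fold lower (2.65 to 4.08) at 46.9, 20.1 and 14.3 CPM, and Hp, haptoglobin, had 21, 0 and 0 reads. C3, the most abundant, was not past the rule at 683, 359 and 495 CPM. Lbp and Ptx3 had their lowest value in TPA and C4b in CDDO+TPA.

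Chemokines were near the background: 1 was higher and 1 lower among 14 measured members, and 12 did not reach the rule (median log2 fold change 0.01). Cx3cl1, fractalkine, had 8, 28 and 21 reads, Ccl25 had 27.5, 29.1 and 10.6 CPM (2.58-fold lower, 2.00 to 3.36), and the most abundant, the monocyte attractant Ccl2, had 136, 74.7 and 107 CPM. Among cytokines and their receptors 8 of 31 measured members (25.8%) were higher and 3 were lower, with a median log2 fold change of -0.12. However, 6 of the 31 had under 1 CPM in control and were measured only through CDDO+TPA. Of the other 25, 3 were higher. Il24, a secreted interleukin, was 11.6-fold higher (7.68 to 18.2) at 3.12, 31.8 and 36.1 CPM, whereas Il23a, a cytokine subunit, was lower with 52, 6 and 1 reads. The inflammatory cytokine gene Il1a had 1, 2 and 16 reads and Nos2, the inducible nitric oxide synthase, 1, 0 and 15 reads, both near absent in the control and TPA libraries. Csf1, the macrophage growth factor and most abundant member, had 712, 450.3 and 547 CPM. In prostaglandin synthesis and reception 3 of 13 measured members were higher and 1 lower (median log2 fold change 0.43). Of the 13, 2 had under 1 CPM in control, and 2 of the other 11 were higher. Ptges, which makes prostaglandin E, and its receptor Ptger4 were 2.93-fold higher (2.48 to 3.48) and 2.85-fold higher (2.15 to 3.82), at 23.6, 70.7 and 69.2 CPM and 8.49, 19.7 and 24.2 CPM. Alox12 had 5, 12 and 17 reads and Ptgds, the prostaglandin D synthase, 27, 18 and 9 reads. Ptgs2, inducible cyclooxygenase, the most abundant, stood at 388, 372 and 588 CPM without passing the rule.

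Immune signalling lists stood near the background. For the NF-kB pathway 1 of 18 measured members was higher and 1 lower (median log2 fold change -0.31); the adhesion target Vcam1 was 2.29-fold lower (1.98 to 2.64) at 80.5, 23.6 and 35.2 CPM, and Ikbkg, the regulatory kinase subunit, was 2.19-fold higher (1.99 to 2.41) at 79.9, 103 and 175 CPM but overlaps G6pdx on the opposite strand. Nfkb2, a precursor subunit and the most abundant, had 294, 309.6 and 254 CPM. In the interferon response 1 of 24 measured members was higher and 0 lower (median log2 fold change -0.01). The single member past the rule, Oasl1, had 3, 2 and 12 reads, and the repressor Irf2 led in abundance at 122, 94.5 and 84.0 CPM. In antigen presentation 1 of 15 measured members was higher and 1 lower (median log2 fold change -0.27). Cd74, the class II invariant chain, was 4.33-fold lower (3.09 to 6.18) at 23.6, 6.78 and 5.45 CPM, Ciita, the class II activator, had 1, 9 and 8 reads, and Tapbp, a peptide-loading protein, was the most abundant at 232, 159 and 180.1 CPM.

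Receptors and ligands of growth factor pathways included large single differences. In the PDGF, VEGF, FGF and angiopoietin list 5 of 23 measured members (21.7%) were higher and 4 lower (median log2 fold change 0.42). Of the 23, 1 had under 1 CPM in control, and 4 of the other 22 were higher. The 2 PDGF receptors went opposite ways: Pdgfra was 14.7-fold higher (10.7 to 20.6) at 5.24, 34.9 and 76.9 CPM, and Pdgfrb was 3.32-fold lower (2.84 to 3.90) at 86.6, 81.5 and 26.1 CPM. In TPA Pdgfrb was not past the rule, whereas Pdgfra was higher. Angpt2, an angiopoietin, had 4, 165 and 27 reads and overlaps Mcph1 on the other strand, and the most abundant member Fgfr1 had 324, 521 and 484 CPM. For the insulin-like growth factor axis 1 of 14 measured members (7.14%) was higher and 3 were lower, with a median log2 fold change of -0.19. Igfbp7 was 2.60-fold lower (2.25 to 3.02) at 83.1, 18.3 and 31.9 CPM and Igfbp6 2.80-fold higher (2.10 to 3.77) at 8.24, 20.5 and 23.1 CPM, both binding proteins. Igfbp5 had 19, 10 and 1 reads and the ligand Igf1 10, 0 and 0 reads, while Igf2r, the most abundant, had 506, 375 and 492 CPM.

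In TGF-beta and BMP signalling 4 of 31 measured members were higher and 1 lower (median log2 fold change -0.02). Of the 31, 2 had under 1 CPM in control, and 3 of the other 29 were higher. Gdf15, a stress-induced ligand, was 3.35-fold lower (2.88 to 3.90) at 94.1, 73.2 and 28.1 CPM, and Grem1, a BMP antagonist, was 4.77-fold higher (3.66 to 6.31) at 8.36, 17.7 and 39.9 CPM. Bmp6 and the receptor Acvrl1 had 16, 5 and 63 reads and 0, 1 and 12 reads, and the receptor Bmpr2 was the most abundant at 308, 218 and 256 CPM. Wnt signalling had 2 of 20 measured members higher and 0 lower (median 0.05): Dkk2, a secreted modulator, with 2, 17 and 33 reads, and Lef1, a nuclear effector, with 14, 51 and 33 reads. The coreceptor Lrp6 was its most abundant member at 234, 223 and 205 CPM. For Notch signalling 2 of 11 measured members were higher and 0 lower (median log2 fold change 0.10). Both had under 1 CPM in control, and 0 of the other 9 were higher. The receptor Notch4 had 4, 92 and 145 reads (36.8-fold higher, 14.1 to 137) and the ligand Dll4 1, 43 and 16 reads, whereas Notch2, the most abundant, had 215, 188 and 189.9 CPM.

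Cholesterol synthesis had the lowest median of the lists: 0 of 25 measured members (0%) were higher and 7 were lower, with a median log2 fold change of -0.54, and 3 of the 25 were positive. TPA over control had 0 of 25 higher and 7 lower, with a median of -0.71. Insig1, a sterol sensor that holds back SREBP, was 3.05-fold lower (2.58 to 3.61) at 73.0, 36.3 and 23.9 CPM. Tm7sf2, a sterol reductase, had 9.61, 7.66 and 3.93 CPM. Srebf2, the master factor of the pathway and its most abundant member here, stood at 327, 156 and 181 CPM. Srebf2 had its lowest value in TPA, whereas Insig1 and Tm7sf2 were lowest in CDDO+TPA.

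In lipoprotein receptors and cholesterol efflux 1 of 12 measured members was higher and 1 lower (median log2 fold change -0.25). Abca1, the efflux pump for cholesterol, was 6.48-fold higher (4.75 to 9.01) at 5.87, 13.6 and 38.0 CPM, the nuclear oxysterol receptor gene Nr1h3 had 10, 5 and 1 reads, and the most abundant Lrp1 had 843, 623 and 779.6 CPM. For fatty acid metabolism 1 of 35 measured members was higher and 4 lower (median log2 fold change -0.02). Acox2, a peroxisomal oxidase, was 3.41-fold lower (2.44 to 4.87) at 19.5, 0.753 and 5.70 CPM, and Fabp5, the epidermal fatty acid binding protein, was 2.46-fold lower (2.14 to 2.83) at 88.5, 28.5 and 36.0 CPM. The uptake receptor Cd36 had 9, 7 and 1 reads, Acacb, an acetyl-CoA carboxylase, was higher at 5.37, 14.2 and 14.3 CPM, and Fasn, fatty acid synthase, led in abundance at 451, 450.4 and 413 CPM. In glycolysis and hypoxia-induced genes 3 of 26 measured members were higher and 0 lower (median log2 fold change 0.32). Pfkfb4, a regulator of glycolytic flux, was 3.30-fold higher (2.60 to 4.22) at 11.4, 38.8 and 37.5 CPM, Pdk1, which closes the entry of pyruvate into mitochondria, 3.12-fold higher (2.53 to 3.88) at 14.6, 40.9 and 45.6 CPM, and Bnip3, a mitophagy receptor, 2.38-fold higher (2.14 to 2.66) at 59.9, 163 and 143 CPM. Pkm, pyruvate kinase, the most abundant, had 382, 421 and 447 CPM. None of 27 nuclear oxidative phosphorylation subunits was past the rule (median 0.03).

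For cytosolic heat shock 4 of 19 measured members (21.1%) were higher and 0 were lower, with a median log2 fold change of 0.36, and TPA over control had 5 of 20 higher and 0 lower, with a median of 0.52. The inducible HSP70 genes Hspa1a and Hspa1b had 17.1, 294 and 160.2 CPM and 18.8, 378 and 207 CPM; their sum was 10.2-fold higher than control (9.05 to 11.6) and 0.546 of the TPA level. Hspa4l, a nucleotide exchange factor for HSP70, was 4.16-fold higher (3.79 to 4.59) at 66.0, 385 and 275 CPM, and the small chaperone gene Cryab, which overlaps Hspb2 on the other strand, was 2.30-fold higher (2.01 to 2.65) at 37.4, 49.0 and 86.2 CPM. The constitutive HSP90 gene Hsp90ab1 was the most abundant at 462, 569 and 531 CPM. Hspa1a and Hspa1b are near copies on chromosome 17, which is why their sum is given. The 60 bases before their starts differ at 1 position (59 of 60 letters equal).
Hspa1a, chr17:34972157-34972216, minus strand: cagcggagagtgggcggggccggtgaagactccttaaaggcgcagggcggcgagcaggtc
Hspa1b, chr17:34959239-34959298, minus strand: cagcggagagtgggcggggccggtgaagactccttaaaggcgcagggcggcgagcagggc

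None of 27 genes of the unfolded protein and ATF4 response was past the rule (median -0.20), and its most abundant member, the endoplasmic reticulum stress sensor Atf6, had 541, 241 and 335 CPM. Among p53 targets and cell death genes 2 of 27 measured members were higher and 1 lower (median log2 fold change -0.22). Bbc3, the death-promoting protein PUMA, was 3.10-fold lower (2.71 to 3.56) at 110.1, 101 and 35.5 CPM, while Gadd45g, a growth arrest gene, and Bmf, a death-promoting relative of BCL2, were higher at 5.99, 53.9 and 20.8 CPM and 4, 49 and 21 reads. Ccng1, a p53-induced cyclin and the most abundant, had 429, 399 and 426 CPM. Cytosolic ribosomal proteins had none of 30 past the rule and a median of -0.01, with Rpl4 the most abundant at 288, 302 and 287 CPM.

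Chromatin enzymes differed in single members. Of the DNA methylation and demethylation enzymes 2 of 14 measured members were higher and 2 lower (median log2 fold change -0.15). Dnmt1, the maintenance methyltransferase, was 2.45-fold higher (2.25 to 2.68) at 93.5, 117 and 229 CPM together with its guide Uhrf1, given above, and the demethylase gene Tet3 was 2.11-fold lower (1.91 to 2.32) at 162, 248 and 77.0 CPM. Tet3 had its highest value in TPA. Dnmt3l had 9, 1 and 1 reads. In histone deacetylases and sirtuins 1 of 17 measured members was higher and 0 lower (median log2 fold change 0.02); the member past the rule was Hdac11 at 7.49, 14.9 and 16.6 CPM, and Hdac5 led in abundance at 153, 203 and 185 CPM. For histone methyltransferases and demethylases 0 of 34 measured members were higher and 1 lower (median log2 fold change -0.12). Nsd1, a lysine methyltransferase, had 59, 121 and 28 reads (2.08-fold lower, 1.30 to 3.38), and Kmt2d, the enhancer methyltransferase and most abundant member, had 542, 713 and 315 CPM without passing the rule.

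Among homeobox and mesenchymal transcription factors 3 of 50 measured members were higher and 3 lower (median log2 fold change -0.21). Sox9, a factor of skin stem cells and cartilage, was 2.66-fold higher (2.40 to 2.96) at 63.1, 228 and 168 CPM, Sox4 had 6.99, 12.8 and 18.9 CPM, Hoxd3 had 14, 21.5 and 5.96 CPM with an antisense gene on its other strand, and Tbx2 had 21, 12 and 8 reads. Klf4, the most abundant, had 397, 292 and 249 CPM. In the circadian clock 1 of 17 measured members was higher and 1 lower (median log2 fold change -0.21). Bhlhe41, a clock repressor, was 2.11-fold higher (1.75 to 2.55) at 21.1, 91.3 and 44.5 CPM and Hlf, a clock output factor, 2.63-fold lower (2.06 to 3.37) at 30.9, 34.5 and 11.8 CPM, while Clock itself was the most abundant at 218, 269 and 226 CPM. Of the lysosomal enzymes 1 of 23 measured members was higher and 0 lower (median log2 fold change -0.08): the member past the rule was Cd68, given above, and Lamp2, a lysosomal membrane protein, was the most abundant at 595, 417 and 492 CPM. Each of these 3 lists stood near or below the background share.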

How the data were processed

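Total RNA of the control, TPA and CDDO+TPA libraries was measured. The deposited values are raw read counts by gene symbol; per the file headers they came from featureCounts 1.5.3 with UCSC gene models of mm10, with primary alignments kept and no option for strand or read pairs, and the command names 7 alignment files of which 3 columns are present. HISAT2, Picard and DESeq stand in the submitters' processing notes without version, and the column names carry a mark of duplicate removal, which can cap abundant genes. The column taken as CDDO+TPA names only CDDO; it was matched because no other sample's labels name CDDO, and if it held another treatment every value would describe that.

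Here, library totals were scaled by TMM (edgeR 4.0.16, R 4.3.3; factors 0.978, 1.02 and 1.00). Fold intervals are exact conditional binomial (Clopper-Pearson). No p-value was computed. Genes named are the 15 highest and 15 lowest past the rule with at least 10 CPM, up to 4 of the largest past the rule per list, the most abundant member of each list, and all NRF2 factors, proliferins, AP-1 factors and glutathione S-transferases; a few others, such as Mcm5, the markers near 0 and some genes plotted, were chosen after their values were seen. Some genes that the rule names are not reported here. The members and the 56 lists (1407 genes) were chosen with earlier results of these data known. Opposite-strand overlaps were read from gene spans, not exons. The steps were tested on simulated data. DESeq2 1.42.0 gave alternative size factors.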

Additional observations from a re-analysis of the deposited data

How the results depend on the processing

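No paired analysis was possible because each group has 1 library. The main counts of 1043 higher and 437 lower became 515 higher and 164 lower when a mean of at least 10 CPM was required, 309 higher and 109 lower at a fold of 4, and 407 higher and 140 lower when each interval was widened for an assumed coefficient of variation of 0.4. The first 2 come from fewer genes tested and a stricter size, and the last from wider intervals. Under the other 12 alternatives, of which removal of the kidney markers (1042 higher and 408 lower) and of the trend with GC content (1055 higher and 436 lower) were chosen after seeing the data, the counts stayed between 904 and 1104 higher and between 361 and 467 lower. The median of the DNA methylation enzymes was -0.15, and 0.029 without genes that overlap another on the opposite strand, the 1 list median that changed sign. Of the values for named genes under alternative scalings and prior counts 1516 stayed and 8 moved, 7 of them with a prior count of 5 and for genes with few reads in 1 library (Atp13a4, Ggt1, Gsta1, Gsta2, Lox, Prl2c2 and Prl2c5), and Fn1 under upper-quartile scaling. Of the list counts 1392 stayed within 1.5 times of the main count and 176 moved. At this depth a gene with 0 reads could lie at up to 0.380 CPM.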

Other observations

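Other groups of genes stood higher in CDDO+TPA than in control; they were put together after the values were seen, so their counts describe and support nothing. Homologous recombination and Fanconi genes repair breaks and crosslinks of DNA, and of 33 measured, 16 were higher and 0 lower, with a median log2 fold change of 0.97. Brca1, a central factor of that repair, was 4.25-fold higher (3.65 to 4.96) at 26.0, 25 and 110.2 CPM. Fancd2, of crosslink repair, had 8.24, 6.53 and 37.8 CPM, and the translocases Rad54l and Rad54b had 4.12, 5.15 and 19.1 CPM and 4.12, 3.39 and 21.2 CPM. In TPA over control 0 of 33 were higher and 5 lower. CDDO+TPA was the highest library for each of the 4 genes named.

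Serpinb genes of chromosome 13 encode intracellular protease inhibitors and lie as a cluster of similar copies, whose reads may be exchanged. Of 13 measured, 9 were higher and 0 lower, with a median log2 fold change of 1.44. However, 5 of the 13 had under 1 CPM in control and were measured only through CDDO+TPA. Of the other 8, 4 were higher. Serpinb9b had 55.3, 25.4 and 137 CPM (2.48-fold higher, 2.21 to 2.77) and Serpinb1b 3.00, 2.01 and 17.9 CPM (5.96-fold higher, 3.85 to 9.62), while Serpinb9e and Serpinb9f had 1, 4 and 68 reads and 1, 0 and 25 reads. In TPA Serpinb9b was 2.18-fold lower than in control (1.84 to 2.59), and Serpinb1b was not past the rule. Chromosome 13 had the largest share of higher genes of all chromosomes, 58 of 484 measured (12.0%), beside 10.4% on chromosomes 1 and 15. The 9 higher Serpinb genes are part of those 58, so this share is not a separate observation.

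Genes of the epidermal differentiation complex on chromosome 3, many of which build the cornified envelope of skin, were listed for 46 members. Of 16 measured, 8 were higher and 0 lower, with a median log2 fold change of 1.26. However, 6 of the 16 had under 1 CPM in control and were measured only through CDDO+TPA. Of the other 10, 2 were higher. Another 30 were not measured. Among them, Lor and Flg2 had 0 reads in all 3 libraries and Ivl had 0, 1 and 4 reads. The envelope genes Lce1g and Sprr2h had 24, 108 and 259 reads and 0, 1 and 37 reads, and the S100 protein gene S100a7a had 18, 95 and 99 reads. These values stand beside the near absence of the basal keratins Krt5 and Krt14 in the same libraries.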
